A study of Homo sapiens with 12 samples.

Results

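The mitotic spindle, kinetochore and cell cycle genes are 50 genes. Most of their products build the spindle, attach chromosomes to it or time the entry into and the exit from mitosis. The list also holds other cell cycle genes, such as those of the E cyclins, and all 50 are called mitotic genes below. They were taken by name from a table of log2 expression, with 1 value per gene symbol, which holds 20545 symbols. All 50 were found, 49 under their own symbol and CDK1 under its older symbol CDC2. All 12 samples are RNA from established human cancer cell lines on Illumina bead arrays. HCT116 is a colon carcinoma line, HL60 a promyelocytic leukaemia line and SNU398 a hepatocellular carcinoma line. In each line 2 samples had received a treatment labelled combination, whose components the labels do not name, and 2 had been given 5-Aza-CdR, or decitabine, a nucleoside that captures DNA methyltransferases on DNA. Dose and time are not stated in the labels, and no untreated sample was analysed here, so every treatment difference below is the combination minus 5-Aza-CdR alone. Nothing in the labels tells whether replicate samples were grown as separate cultures. The p-values thus reflect only sample-to-sample spread, which may be technical and which limma moderates over all genes.

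As a cell nears division, cyclins bind CDK1, chromosomes condense, and a kinetochore forms on each centromere and catches spindle microtubules. The spindle checkpoint holds back the anaphase promoting complex until every chromosome is attached; the complex then destroys securin and the mitotic cyclins, and the sister chromatids part. Most of these genes are transcribed in a common wave late in the cell cycle, under FOXM1 and MYB-MuvB complexes, and are repressed in resting cells by the DREAM complex. In total RNA from a culture, fewer cells in mitosis and less RNA per cell cannot be told apart.

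The 2 arrays of a line with the same replicate number, 1 of each treatment, are called a pair here, and there were 6 pairs. Arrays of 1 pair deviated together from their group means, with a correlation across genes between 0.841 and 0.907 in the 3 lines. HCT116 replicate 2 listed exactly 0 for 4938 genes, and zeros were treated as not measured. The mitotic genes could be compared in both pairs for 48 genes in HCT116 and for 50 genes in HL60 and in SNU398; CCNA2 is not listed for HCT116 and CCNE2 was at 0 on its replicate 2 arrays. The replicate 2 arrays of HCT116 and HL60 stood apart from replicate 1. In HCT116 the median log2 level of ribosomal protein genes was 13.97 and 13.93 on the combination and 5-Aza-CdR arrays of replicate 1, and 11.72 and 11.40 on those of replicate 2. In HL60 it was 14.54 and 14.46 on replicate 1, and 13.72 and 12.56 on replicate 2, while the 4 SNU398 arrays lay between 14.39 and 14.49. As a check of the labels, MPO of granulocyte precursors lay between 14.94 and 15.87 in HL60 and at most at 7.70 in SNU398, and KRT19 of epithelia lay between 11.24 and 13.14 in HCT116 and at most at 7.76 elsewhere. The other colon markers did not set HCT116 apart: EPCAM lay between 8.16 and 12.16 in HCT116 and between 10.90 and 11.47 in SNU398, CDX2 was higher in SNU398 (9.16 to 9.54) than in HCT116 (8.48 to 8.60), and KRT20 and LGALS4 stayed below 9 on every HCT116 array. The hepatocyte transcripts ALB, SERPINA1, APOA1 and TF did not mark SNU398, where none passed 8.27.

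In SNU398 cells the mitotic genes were mostly lower under the combination than under 5-Aza-CdR. The difference was below 0 for 43 of the 50 genes, with a median of -0.16 on the log2 scale, against a median of -0.003 over the 19402 genes measured. In both pairs 36 of the 50 (72%) were lower and 2 (4%) were higher, against 30.7% and 29.6% of all genes. Both combination arrays lay below both 5-Aza-CdR arrays for 23 of the 50 genes (12.1% of all genes) and above them for 1 gene (12.6% of all genes). Granulocyte markers had mean log2 levels between 7.66 and 7.75 on these arrays and colon epithelium markers between 8.46 and 8.55, with EPCAM and CDX2 above that level, and their part in the result was not tested. The ribosomal protein genes had pair medians of -0.00 and -0.05.

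**Figure D1:**
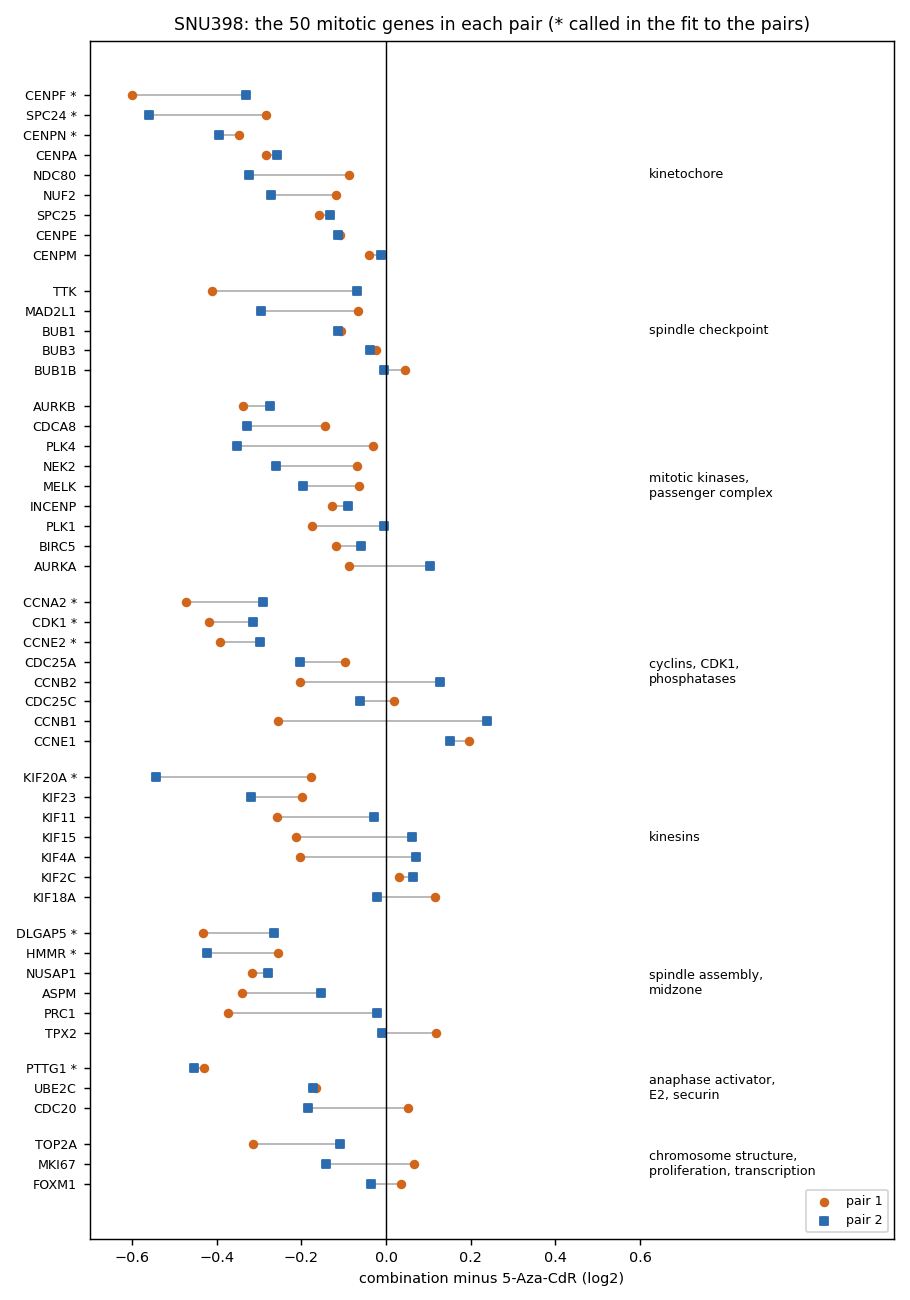
Difference in log2 level, combination minus 5-Aza-CdR, for each of the 50 mitotic genes in pair 1 (circles) and pair 2 (squares) of SNU398, grouped by role; an asterisk marks the 10 genes called in the fit to these pairs. Of the 50 genes, 36 lie left of 0 in both pairs, all 9 kinetochore genes among them, and CCNE1 and KIF2C lie right of 0 in both.

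Whether single genes passed a test depended on the fit. In the unpaired limma fit to all 12 arrays no mitotic gene was called at an adjusted p under 0.05 (0% of 19402 genes). None reached an unadjusted p under 0.05 (32 of 19402 genes did). That fit ignores the pairs and takes 1 spread per gene over all 12 arrays. Replicate gaps in HCT116 and HL60 thus enter its SNU398 errors. For CENPA its SE was 1.18, while the SNU398 replicates of each treatment had SDs of 0.015 and 0.004. The 0 calls of that fit therefore say little about SNU398 alone. The limma fit over the 6 pairs also called 0 of the 50 (0% of all genes), and its spread also comes from all 3 lines. In it 3 of the 50 had an unadjusted p under 0.05 (429 of 19402 genes). The limma fit to the 2 pairs of SNU398 alone, which takes its spread from this line, called 10 of the 50 as lower and 0 as higher; of all genes it called 3.66%, 1.23% as lower and 2.43% as higher. These 10 were CENPF, CENPN, SPC24, CCNA2, CCNE2, CDK1, KIF20A, DLGAP5, HMMR and PTTG1, lower by between 1.265-fold and 1.38-fold. The count in that fit was 12 with the arrays centred, 11 when only genes averaging at least 9 on the log2 scale were tested, 7 after quantile normalization and 1, PTTG1, with a trended and robust variance. The share of all genes called under these settings was not counted, so these counts have no background beside them.

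Each of the 9 kinetochore genes was lower with the combination in both SNU398 pairs, and 3 were called in the fit to these pairs. CENPF, a large protein of the outer kinetochore that accumulates late in the cell cycle, had log2 levels of 9.72 and 9.47 on the combination arrays, against 10.32 and 9.80 on the 5-Aza-CdR arrays (replicates 1 and 2 throughout). Both combination levels lay below both 5-Aza-CdR levels, and the mean difference was -0.46 ± 0.09 (moderated SE, n = 2 pairs, adjusted p = 0.0073). Every SE given here is limma's moderated one, which draws a gene's spread toward that of all genes. It is therefore not the spread of the 2 pairs alone, which were -0.60 and -0.33 for CENPF. CENPN, which binds the centromeric nucleosome, stood at 12.02 and 11.94 with the combination, against 12.36 and 12.34 with 5-Aza-CdR. The groups did not overlap and differed by -0.37 ± 0.08 (adjusted p = 0.019), with pair differences of -0.35 and -0.39. SPC24 stood at 9.68 and 9.31 with the combination, against 9.96 and 9.87 with 5-Aza-CdR, again without overlap (-0.42 ± 0.09, adjusted p = 0.014). SPC24 forms the inner end of the NDC80 complex, the microtubule grip of the kinetochore. The mean differences of the complex's other subunits, SPC25, NUF2 and NDC80, were -0.15, -0.19 and -0.21, and none was called. CENPA, the histone variant of centromeric nucleosomes, stood at 9.64 and 9.66 with the combination, against 9.92 and 9.92 with 5-Aza-CdR (adjusted p = 0.087). The mean differences of the kinetochore motor CENPE and of CENPM were -0.11 and -0.03.

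**Figure D2:**
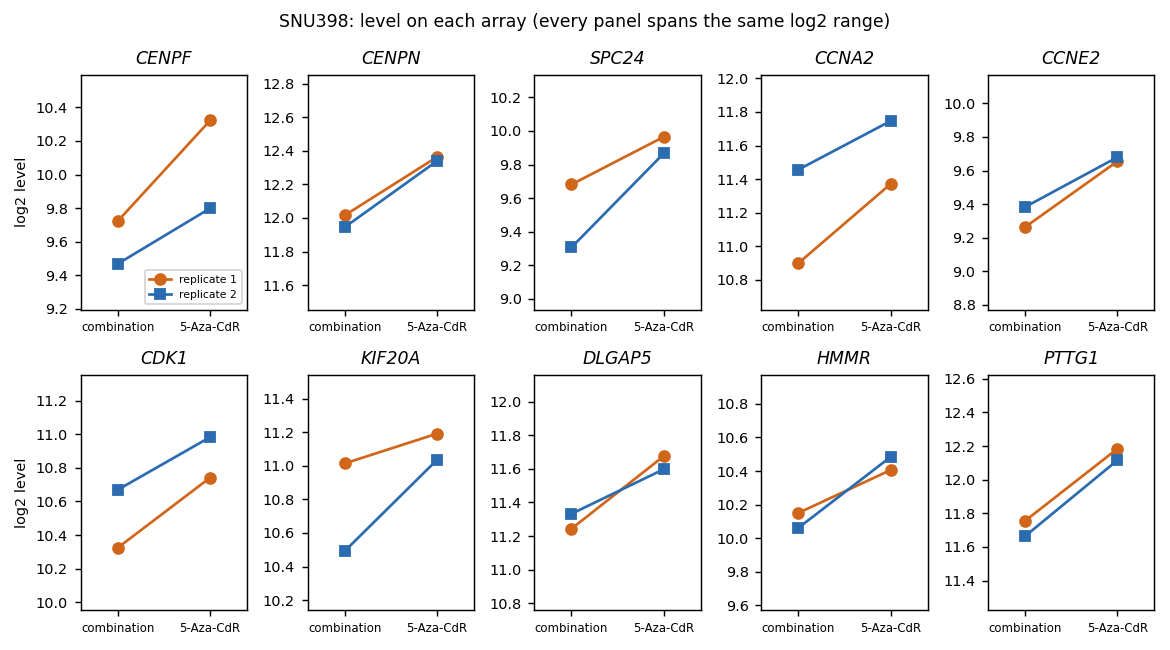
Log2 level on each SNU398 array of the 10 genes called in the fit to the SNU398 pairs, combination left and 5-Aza-CdR right, with a line joining the arrays of replicate 1 (circles) and of replicate 2 (squares). Every line ends lower on the combination side, and the groups overlap only for CCNA2.

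Of the cyclins, CDK1 and its activating phosphatases, 3 of 8 were called and 4 of 8 were lower in both SNU398 pairs. CDK1, CCNA2 and CCNE2 were called, whereas the B-type cyclins, its partners in mitosis, changed sign between the pairs. CDK1, the kinase that starts mitosis, stood at 10.32 and 10.67 with the combination, against 10.74 and 10.98 with 5-Aza-CdR, a difference of -0.37 ± 0.08 (adjusted p = 0.022) without overlap. CCNA2, cyclin A2, had 10.90 and 11.46 with the combination, against 11.37 and 11.75 with 5-Aza-CdR. Its groups overlapped, since both replicate 2 arrays were higher, and the difference within pairs was -0.38 ± 0.08 (adjusted p = 0.020). CCNE2 stood at 9.26 and 9.38 with the combination, against 9.66 and 9.68 with 5-Aza-CdR (-0.34 ± 0.08, adjusted p = 0.029). CCNE1, the other cyclin E, had the opposite sign: 9.72 and 9.57 with the combination, against 9.52 and 9.42 with 5-Aza-CdR, and it was the only mitotic gene with both combination arrays above both others (mean difference 0.17, adjusted p = 0.31). The pair differences of CCNB1 were -0.26 and 0.24, and those of CCNB2 were -0.20 and 0.13. CDC25A and CDC25C, phosphatases that remove the inhibitory phosphates of CDKs, had mean differences of -0.15 and -0.02.

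The spindle assembly and midzone genes had the most negative median of the 8 roles in SNU398, -0.27, and 5 of 6 were lower in both pairs. DLGAP5, which binds spindle microtubules near chromosomes, stood at 11.24 and 11.33 with the combination, against 11.68 and 11.60 with 5-Aza-CdR (-0.35 ± 0.08, adjusted p = 0.030). HMMR, a spindle pole protein and hyaluronan receptor, had 10.15 and 10.06 with the combination, against 10.41 and 10.48 with 5-Aza-CdR (-0.34 ± 0.08, adjusted p = 0.035). Neither gene's groups overlapped. NUSAP1, which bundles microtubules, lay just outside the threshold, with pair differences of -0.32 and -0.28 (adjusted p = 0.058). The mean differences of ASPM, of the midzone crosslinker PRC1 and of TPX2, an activator of Aurora A, were -0.25, -0.20 and 0.05, and TPX2 changed sign between the pairs.

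PTTG1, the securin that restrains separase until anaphase, had the smallest p of the mitotic genes in SNU398. It stood at 11.76 and 11.66 with the combination, against 12.18 and 12.12 with 5-Aza-CdR, without overlap (-0.44 ± 0.08, adjusted p = 0.0058). UBE2C, the ubiquitin-conjugating enzyme of the anaphase promoting complex, was lower by a similar size in both pairs, -0.17 and -0.17 (adjusted p = 0.32). CDC20, the activator of that complex, had pair differences of 0.05 and -0.18.

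Among the 7 kinesins 1 was called and 3 were lower in both SNU398 pairs. KIF20A, a motor of the central spindle that serves cytokinesis, stood at 11.01 and 10.49 with the combination, against 11.19 and 11.03 with 5-Aza-CdR (-0.36 ± 0.09). Its groups parted by little, and with an adjusted p of 0.046 it lay just inside the threshold. KIF23, another central spindle motor, had pair differences of -0.20 and -0.32 (adjusted p = 0.11), and KIF11, which pushes spindle poles apart, -0.26 and -0.03. KIF2C, a microtubule depolymerase, was higher in both pairs by 0.03 and 0.06, and KIF4A, KIF15 and KIF18A changed sign between the pairs.

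No gene of the checkpoint, of the mitotic kinases or of the chromosomal passenger complex was called in SNU398, although 12 of the 14 were lower in both pairs. AURKB, the kinase of the passenger complex, came nearest: 10.99 and 10.82 with the combination, against 11.33 and 11.09 with 5-Aza-CdR, without overlap (-0.31 ± 0.08, adjusted p = 0.052). The mean differences of its partners CDCA8, INCENP and BIRC5 (survivin) were -0.24, -0.11 and -0.09. AURKA, the kinase of the spindle poles, had pair differences of -0.09 and 0.10. PLK1, PLK4, NEK2 and MELK had mean differences between -0.19 and -0.09. Of the checkpoint genes TTK, BUB1, BUB3 and MAD2L1 were lower in both pairs, with mean differences between -0.24 and -0.03, and BUB1B, at 0.02, changed sign. TOP2A, which untangles sister chromatids, had pair differences of -0.31 and -0.11, whereas the proliferation marker MKI67 and the transcription factor FOXM1 stood at -0.04 and 0.00 on average.

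In HCT116 cells the median of the mitotic genes lay above 0, while 15 of the 48 genes lay below it. The 9 kinetochore genes had a median of -0.04 there, with 3 lower and 3 higher in both pairs. Leaving out 1 array moved the median of the mitotic genes between -0.74 and 0.95. The median of 48 genes was 0.10, against 0.03 over all 12349 genes tested, with pair medians of 0.07 and 0.10; 21 of the 48 (43.8%) were higher in both pairs and 7 (14.6%) were lower, against 30% and 26.4% of all genes. The ribosomal protein genes had pair medians of 0.05 and 0.31 on the same arrays, and their part in this shift was not tested. The unpaired limma fit called 0 of the 48 (0% of all genes, and no mitotic gene at an unadjusted p under 0.05). The fit to the 6 pairs called 0 (0% of all genes). In it 5 of the 48 had an unadjusted p under 0.05, a share near that of all genes (1195 of 12349). The fit to the 2 HCT116 pairs called 1 of the 48, SPC24, as lower; of all genes it called 0.202%, 0.0324% as lower and 0.17% as higher. Both combination arrays lay below both 5-Aza-CdR arrays for 1 mitotic gene (5.43% of all genes) and above them for 1 (0.85%).

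SPC24 stood at 9.40 and 9.74 on the combination arrays of HCT116, against 9.85 and 11.31 on the 5-Aza-CdR arrays. The groups did not overlap, the pairs differed by -0.45 and -1.57, and the mean difference was -1.01 ± 0.24 (moderated SE, n = 2 pairs, adjusted p = 0.046). This call ended with quantile normalization, with the filter at 9 on mean log2 and with a trended and robust variance, and held with the arrays centred. The 5-Aza-CdR array of replicate 2, at 11.31, stood above the others, which lay between 9.40 and 9.85. Leaving out 1 array moved the difference between -1.74 and -0.28. That array also had the lowest ribosomal median of HCT116, 11.40, and its part in the SPC24 difference was not tested. TTK, the kinase that starts checkpoint signalling, had 10.33 and 9.82 with the combination, against 9.69 and 9.45 with 5-Aza-CdR, and was the only mitotic gene in HCT116 with both combination arrays above both others (0.63 and 0.37 in the pairs, adjusted p = 0.54). CDK1 had 10.08 and 7.54 with the combination, against 9.75 and 7.03 with 5-Aza-CdR, and its replicates lay farther apart than its treatments (0.33 and 0.51 in the pairs, adjusted p = 0.62). ASPM had 10.34 and 10.23 with the combination, against 10.99 and 10.30 with 5-Aza-CdR (-0.65 and -0.07 in the pairs, adjusted p = 0.68). CDC20, UBE2C and PTTG1 were each higher in both HCT116 pairs, with mean differences of 0.32, 0.11 and 0.16, and none of them was called.

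In HL60 cells the 2 pairs gave opposite medians for the mitotic genes, -0.05 in pair 1 and 0.30 in pair 2. The sign differed between the pairs for 32 of the 50 genes, 11 (22%) were higher in both and 7 (14%) were lower in both, against 28% and 23.8% of all genes. Ribosomal protein genes had medians of 0.06 in pair 1 and 0.67 in pair 2, and their part in the shift of pair 2 was not tested. No mitotic gene was called in limma by the unpaired fit, the fit to all 6 pairs or the fit to the HL60 pairs (0% of 19402 genes in each). An unadjusted p under 0.05 was reached by 0, 3 and 0 of the 50, against 26, 1417 and 184 of the 19402 genes.

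The largest HL60 differences of 1 sign in both pairs were larger in pair 2. SPC24 stood at 10.55 and 13.18 with the combination, against 10.73 and 14.25 with 5-Aza-CdR, which are pair differences of -0.18 and -1.07. KIF15, a kinesin that helps to keep the spindle bipolar, had 9.36 and 10.90 with the combination, against 9.60 and 11.71 with 5-Aza-CdR. For both genes the replicates lay farther apart than the treatments. Both were highest on the 5-Aza-CdR array of replicate 2, which had the lowest ribosomal median of HL60, 12.56. A link between these values was not tested. CENPA had 9.94 and 8.74 with the combination, against 9.81 and 7.97 with 5-Aza-CdR. CENPM, a subunit of the constitutive centromere network, had 10.58 and 10.55 with the combination, against 10.49 and 9.88 with 5-Aza-CdR, and was the only mitotic gene in HL60 with both combination arrays above both others (8.37% of all genes); none had both below (6.34%). The adjusted p of these 4 genes in the fit to the HL60 pairs was 0.90.

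**Figure D3:**
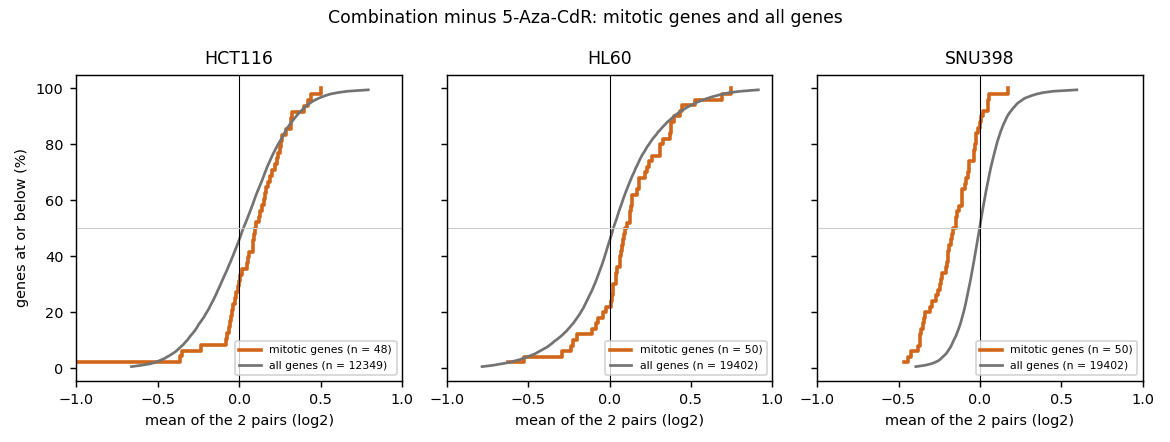
Share of genes at or below a given mean difference, combination minus 5-Aza-CdR (log2, mean of the 2 pairs), for the mitotic genes (orange steps) and all genes (grey) in each line; SPC24 in HCT116, at -1.01, lies beyond the left edge. The curve of the mitotic genes runs left of that of all genes in SNU398, where the medians are -0.16 and -0.00, and to its right over most of its length in HCT116 and HL60.

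CENPF and SPC24 were the only mitotic genes lower with the combination in all 6 pairs, 2 of the 48 measured in all of them (4.17%). That share was near the 3% of all genes, so the count does not set the mitotic genes apart. No mitotic gene was higher in all 6 pairs (3.42% of all genes). CENPF stood at 10.12 and 9.47 with the combination in HCT116, against 10.47 and 9.82 with 5-Aza-CdR. In HL60 it stood at 10.23 and 11.48 with the combination, against 10.53 and 11.77 with 5-Aza-CdR. The 6 pair differences of CENPF were thus close to each other, between -0.60 and -0.29, although its level differed by over 1 log2 unit between the HL60 replicates. Its average over the 3 lines was -0.37 ± 0.07 (moderated SE, n = 6 pairs). The limma fit to all 6 pairs gave it an unadjusted p of 0.0016 and an adjusted p of 0.41. SPC24 averaged -0.69 ± 0.18 (adjusted p = 0.50), with pair differences from -1.57 to -0.18. KIF18A, a kinesin that aligns chromosomes, averaged 0.29 and KIF15 -0.19, and both changed sign among the pairs (adjusted p = 0.50 for each). The average was called for 0 of the 48 mitotic genes, against 0.0081% of all genes, and by the unpaired fit for 0 (0% of all genes).

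No difference in response between lines passed its test. Of the 34 mitotic genes lower in both SNU398 pairs and measured in HCT116, 14 (41.2%) were higher in both HCT116 pairs. Another 5 (14.7%) were lower in both. Over all 3856 genes lower in both SNU398 pairs and measured in HCT116, these shares were 35.6% and 23.2%. Of the 36 lower in both SNU398 pairs, 8 (22.2%) were higher in both HL60 pairs and 5 (13.9%) were lower, against 24% and 25.7% of 5947 genes. The shares of higher genes were thus near those of all genes that were lower in SNU398, while the shares of lower genes were smaller in both lines. The 5 lower in SNU398 and HCT116 were CENPF, SPC24, NDC80, AURKB and ASPM, and the 5 lower in SNU398 and HL60 were CENPF, SPC24, MAD2L1, TTK and CCNA2. PTTG1, UBE2C, CENPA and CDCA8 were lower in both SNU398 pairs and higher in both pairs of each other line. The share of all genes with this pattern was not counted, so it cannot be called particular to them.

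PTTG1 stood at 12.67 and 9.98 with the combination in HCT116, against 12.62 and 9.71 with 5-Aza-CdR. In HL60 it stood at 12.53 and 11.71 with the combination, against 12.48 and 11.33 with 5-Aza-CdR. Its mean differences were thus 0.16 in HCT116, 0.22 in HL60 and -0.44 in SNU398. In limma's F test that the 3 lines respond alike, on all 6 pairs, PTTG1 had an unadjusted p of 0.033, TTK 0.028, CDK1 0.044 and CENPA 0.064, and each had an adjusted p of 0.86. That test called 0% of 12349 genes, as did the unpaired one. On the 6 pairs 3 of 48 mitotic genes had an unadjusted p under 0.05, against 399 of 12349 genes. The SNU398 response minus the HL60 response had a median of -0.27 over the mitotic genes, against -0.02 over all genes. For the SNU398 response minus the HCT116 response these medians were -0.24 and -0.02. In the limma fit to all 6 pairs 6 of 50 and 5 of 48 mitotic genes had an unadjusted p under 0.05. Over all genes 534 of 19402 and 770 of 12349 did, and no gene was called (0% of all genes).

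**Figure D4:**
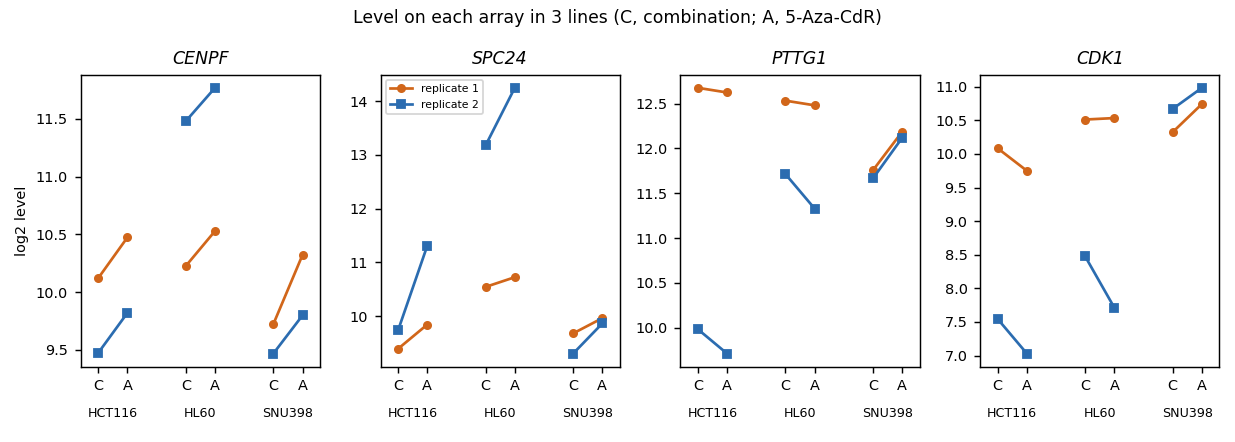
Log2 level of CENPF, SPC24, PTTG1 and CDK1 on all 12 arrays, with the combination (C) left of 5-Aza-CdR (A) in each line and a line joining each pair. CENPF and SPC24 are lower with the combination in all 6 pairs, and PTTG1 only in the SNU398 pairs.

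Other genes of the same pathways were taken from 6 lists. Of the 140 measured in SNU398, 51 (36.4%) were lower in both pairs and 34 (24.3%) were higher, against 30.7% and 29.6% of all genes, and their median was -0.05. The lists differed: 44.1% of the other centromere and kinetochore genes were lower in both pairs and 14.7% higher, with 42.1% and 15.8% of the condensin and cohesin genes and 40% and 20% of the RB, E2F, DREAM and MYB genes (median -0.12). For the other spindle and centrosome genes the shares were 32.1% and 32.1%, for the CDK regulators 32% and 20%, and for the anaphase promoting complex and its partners 21.4% and 57.1%. The fit to the SNU398 pairs called 3 as lower (1.23% of all genes) and 1 as higher (2.43%). Among 34 other centromere and kinetochore genes 1 was called: CENPK, of the constitutive centromere network, stood at 9.16 and 10.10 with the combination, against 9.72 and 10.48 with 5-Aza-CdR (-0.47, adjusted p = 0.0052). CENPI, CENPT and ITGB3BP followed with -0.29, 0.26 and -0.24. Among 19 condensin and cohesin genes NCAPG, a condensin subunit, was called, with 11.35 and 11.64 under the combination, against 11.86 and 11.95 under 5-Aza-CdR (-0.42, adjusted p = 0.012). Among 20 RB, E2F, DREAM and MYB genes E2F3, an activator of genes for S phase entry, was called, with 10.69 and 10.80 under the combination, against 11.24 and 11.05 under 5-Aza-CdR (-0.40, adjusted p = 0.021). Groups of NCAPG and E2F3 did not overlap, and those of CENPK did.

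ANAPC5, a scaffold subunit of the anaphase promoting complex, was the called gene that was higher, with 12.72 and 12.58 under the combination, against 12.44 and 12.19 under 5-Aza-CdR (0.34, adjusted p = 0.032). In its list of 14 genes 8 were higher in both pairs. FBXO5, an inhibitor of the complex, had a mean difference of -0.30 (adjusted p = 0.055), and ESPL1, separase, -0.18. None of 28 other spindle and centrosome genes and none of 25 CDK regulators was called. PIMREG, KIF5B, HAUS1 and FAM83D had the largest differences of the spindle list, between -0.24 and -0.19. CCND1, CDKN3, WEE1 and CDK6 led the CDK regulators, with 0.30, -0.28, -0.25 and 0.24.

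The promoters of the mitotic genes held the letters known from promoters of late cell cycle genes more often than promoters at large. The cell cycle genes homology region, bound by MuvB complexes, was taken as TTTGAA or TTCGAA, and other forms of it were not searched. CCAAT is the box of the factor NF-Y. Both were searched on both strands in RefSeq promoter windows (GRCh38.p14), from 250 bases before to 50 bases after the transcription start. Of the 50 genes 41 have a window, 5 of them more than 1, and only the first window of each gene was used. TTTGAA or TTCGAA stood in 28 of the 41 windows (68.3%), against 16.6% of 27305 genes, and CCAAT in 31 (75.6%), against 35.7%. Both stood in 56.1% of the windows, against 6.58%. The genes called in SNU398 did not hold the homology letters more often than the rest: 5 of 9 (55.6%) did, against 23 of the 32 not called (71.9%), and CCAAT stood in 9 of 9 and in 22 of 32. A match is a description of these letters and does not show that a factor binds.

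The stretches below are shown because these 6 genes, called in the fit to the SNU398 pairs, cover the kinetochore, the cyclins and CDK1, the spindle and securin. Each is 100 bases in the direction of transcription, 5′ to 3′, up to the base before the start; for CDK1 it is the stretch from 200 to 101 bases before the start, where its matches lie. Capitals mark TTTGAA and CCAAT on either strand (reverse matches read TTCAAA and ATTGG), and CCAATTGG is a forward and a reverse match that overlap.
CENPF, chr1:214603095-214603194, plus strand: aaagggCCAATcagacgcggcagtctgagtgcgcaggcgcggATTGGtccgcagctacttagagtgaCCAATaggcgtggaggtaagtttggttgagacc
SPC24, chr19:11155783-11155882, minus strand: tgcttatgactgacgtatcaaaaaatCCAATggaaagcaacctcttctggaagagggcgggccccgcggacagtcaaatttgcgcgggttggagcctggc
CCNA2, chr4:121823884-121823983, minus strand: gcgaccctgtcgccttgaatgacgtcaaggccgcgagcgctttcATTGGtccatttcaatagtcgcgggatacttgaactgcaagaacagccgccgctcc
CDK1, chr10:60778131-60778230, plus strand: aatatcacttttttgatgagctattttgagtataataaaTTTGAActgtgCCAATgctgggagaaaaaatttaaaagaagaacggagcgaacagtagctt
HMMR, chr5:163460532-163460631, plus strand: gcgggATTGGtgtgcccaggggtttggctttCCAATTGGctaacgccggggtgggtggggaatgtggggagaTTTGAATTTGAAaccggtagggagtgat
PTTG1, chr5:160421755-160421854, plus strand: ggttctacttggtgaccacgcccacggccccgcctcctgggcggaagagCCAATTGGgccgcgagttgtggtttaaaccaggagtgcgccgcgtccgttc

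CCAAT stands once to several times in each of the 6 stretches, forward or reverse. TTTGAA stands in those of CDK1 and HMMR, and in HMMR it is repeated without a gap. In the CENPF window TTTGAA lies after the start, at base 41. The first windows of SPC24, CCNA2 and PTTG1 hold neither TTTGAA nor TTCGAA, the only forms searched, so another form of the region may be present. CDK1 and PTTG1 have 2 windows each, of which the first is described.

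The level of the mitotic genes was also compared between SNU398 and HL60, the lines that share 1 set of gene rows, over both treatments. On the mean of the 2 arrays with the same replicate number, limma called 0 of the 50 genes (6.42% of 19402 genes were called). In that fit 6 of the 50 had an unadjusted p under 0.05, against 4542 of 19402 genes. All 4 SNU398 arrays lay above all 4 HL60 arrays for 8 of the 50 genes (16%, against 24.9% of all genes) and below them for 6 (12%, against 19.7%). The 8 were CENPN, BUB3, AURKA, MELK, KIF4A, KIF20A, DLGAP5 and TPX2, and the 6 were SPC24, SPC25, NUF2, PLK1, KIF2C and MKI67. With the replicate number as a random block 3 genes were called, against 18.9% of all genes, and they are named here after their values were seen. TPX2 averaged 11.88 in SNU398 and 9.60 in HL60, a difference of 2.28 (adjusted p = 0.0048). KIF20A averaged 10.93 in SNU398 and 9.60 in HL60 (1.33, adjusted p = 0.028), and PLK1, the kinase of spindle poles and kinetochores, averaged 8.49 in SNU398 and 9.33 in HL60 (-0.84, adjusted p = 0.033). For the other 36 genes the ranges of the lines overlapped.

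**Figure D5:**
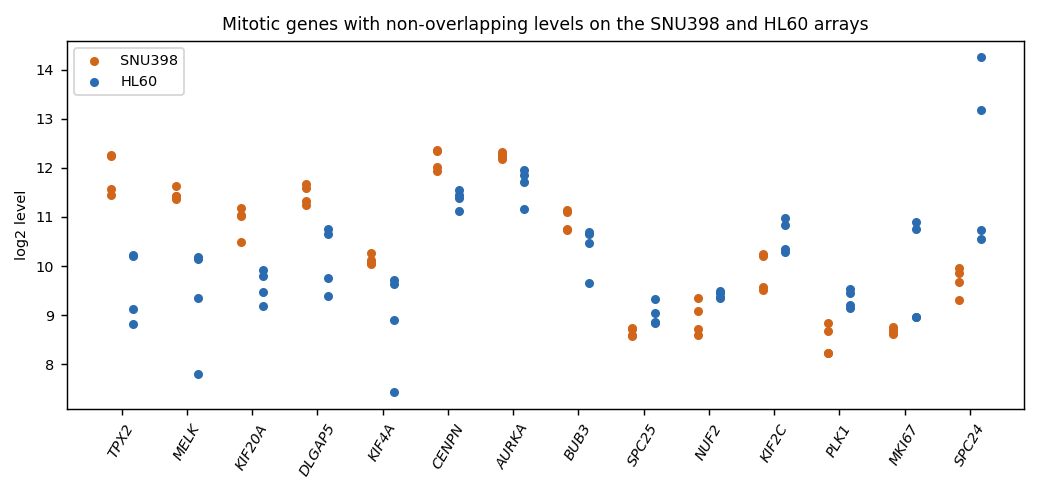
Log2 level on each of the 4 SNU398 arrays (left, orange) and 4 HL60 arrays (right, blue) of the 14 mitotic genes whose ranges do not overlap between the lines. SNU398 is above HL60 for 8 genes and below it for 6, and the HL60 levels of SPC24, MELK and KIF4A spread over more than 2 log2 units.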

How the data were processed

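Total RNA of 12 cell line samples was measured on Illumina bead arrays. The values used are the deposited table of log2 expression, which the submitters' processing notes link to limma; its version, the background correction, the scaling and the choice of probe are not stated in these sources. That the unit is log2 was read from the range of the values. In the array annotation 24 of the mitotic genes have 1 probe and 26 have up to 4. A further table of signals before normalization, with 44 columns for 11 arrays, matches no sample's labels and was not used.

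Exact zeros were set to not measured. limma 3.58.1 in R 4.3.3 was run without pairing on 6 groups (all 12 arrays), on all 6 pairs with the replicate number as a block, and on the pairs of 1 line, with Benjamini-Hochberg adjustment over all genes tested and a threshold of 0.05, two-sided. The unpaired fit is the main one. It ignores the pairs and takes 1 spread per gene over all 12 arrays, replicate gaps of HCT116 and HL60 included. The replicate numbers were taken to pair the arrays because deviations from group means correlated in all 3 lines. The precision is limited by 2 arrays per group. The mitotic genes, the other lists, the tests and the rule for named genes were chosen with earlier results of these data known. That rule takes every mitotic gene called in any fit, in each line the 4 with the largest mean difference of 1 sign in both pairs, and the 4 of smallest p for the average and for the difference between lines; for other lists, called genes and the 4 with the largest difference in SNU398. The other lists were matched by current or older symbols (140 of their genes were measured in SNU398). Scripts were tested on simulated data.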

Additional observations from a re-analysis of the deposited data

How the results depend on the processing

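In the unpaired fit, centring, quantile normalization, a filter on mean log2, zeros kept as listed (treatment differences only), a trended and robust variance and leaving out each array in turn (lowest 0, highest 0) each left 0 mitotic genes called in every line, in the average, in the difference between lines and in the SNU398 minus HL60 level. Without pairing, the replicate gaps enter the spread. In the main setting no mitotic gene had an unadjusted p under 0.05 for a treatment difference. For treatment differences these repeated zeros therefore do not show that a result is stable. The replicate block over all 6 pairs also called 0. The replicate block on the pairs of 1 line called 1 gene in HCT116 (1 with arrays centred) and 10 in SNU398 (12 with arrays centred, 7 after quantile normalization, 11 for a mean log2 of at least 9, 1 with trended and robust variance); these settings of that fit, and an unpaired fit to the 4 arrays of 1 line, which called 0, were added after seeing the data. The SNU398 minus HL60 level called 12 of the 50 mitotic genes with each array as a replicate, against 36.1% of all genes. With the replicate block as a random block it called 3 of the 50, against 18.9% of all genes. Both shares were smaller than those of all genes, so these counts do not set the mitotic genes apart as differing between the lines. On combination arrays only and on 5-Aza-CdR arrays only that level called 0.

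The HCT116 median was 0.074 in pair 1 alone and 0.123 for a mean log2 of at least 9, and leaving out 1 array moved it between -0.74 and 0.95. In HL60 it was -0.052 in pair 1 alone and between -0.14 and 0.36 with 1 array left out. In SNU398 it was -0.168 with arrays centred, -0.175 for a mean log2 of at least 9 and between -0.20 and -0.15 with 1 array left out. Leaving out 1 array reversed CDK1 in HCT116 (-0.94 to 1.78), SPC24 (-2.39 to 1.14), KIF15 (-1.58 to 0.54) and CENPA (-0.48 to 1.37) in HL60, and the averages of KIF18A (-0.043 to 0.63) and KIF15 (-0.55 to 0.16); leaving out 1 array of a pair sets replicates of different level against each other. None of the 10 genes called in SNU398 changed sign there under any setting run.

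The number of arrays limits the precision. Over all genes the SD of the differences within pairs 1 and 2 was 0.239 and 0.434 for HCT116 arrays, 0.158 and 0.552 for HL60 arrays, and 0.169 and 0.180 for SNU398 arrays.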

Other observations

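The mitotic genes differed more between the replicates of HCT116 and HL60 than between treatments. In HCT116 46 of the 48 genes were lower on the replicate 2 arrays than on the replicate 1 arrays, with a median of -1.62 on the log2 scale, against -1.07 over all genes and -2.14 over ribosomal protein genes. In HL60 32 of the 50 were lower on replicate 2, with a median of -0.44, against -0.00 over all genes and -0.76 over ribosomal protein genes. SPC24 went the other way in HL60, higher on replicate 2 by 3.08. In SNU398 25 of the 50 were higher and 25 lower on replicate 2, with a median of -0.00.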
